A study of Rattus norvegicus with 4 samples.

Results

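The Paneth-cell defensins described here are 5 rat alpha-defensin genes, Defa5, Defa6, Defa7, Defa8 and Defa24, out of 26541 genes on the array, measured by 5 of its 30367 gene probes with 1 probe and 1 spot each. They were chosen by gene symbol, with their values on these arrays already known, and the study itself listed Defa6, Defa8 and Defa24 among genes it selected on the same arrays. All levels and ratios of the 5 genes are therefore descriptions, and none was tested. The array carried probes for other alpha-defensin genes, of which 5 are described, and for 41 beta-defensin genes.

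Male Sprague-Dawley rats had been fed an iron-deficient diet (FeD, 5 ppm iron), an iron-adequate diet (FeA, 35 ppm per the labels) or an iron-overloaded diet (FeO, 20275 ppm) for 3 weeks. Pancreatic RNA of 6 rats per diet was combined into 1 pool, so variation among rats cannot be seen. Each of the FeD and FeO pools was hybridised together with FeA on 2 arrays of one slide. The diet pool carried Cy5 on array 1 and Cy3 on array 2. Because a comparison rests on a single pair of pools hybridised again with the dyes exchanged, its arrays count as 1 replicate, and their difference is technical. Both comparisons also use the same FeA pool, so a high FeA value lowers both ratios at once.

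Alpha-defensins are small cationic antimicrobial peptides held together by disulfide bonds. In rodents they are known from the granules of Paneth cells, secretory cells at the base of small intestinal crypts, and in rats also from the granules of neutrophils. Mouse Paneth cells activate their alpha-defensin precursors with the metalloproteinase encoded by Mmp7. The pancreas is mostly acinar tissue, which makes digestive enzymes, and it lies against the duodenum. In bulk tissue such as this, fewer cells of a type and less RNA per cell cannot be told apart.

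The 10 alpha-defensin genes described lie in one cluster, in the order Defa5, Defa24, Defa6, Defa7, Defa8, Defa9, Np4, Defa10, Defa11 and RatNP-3b by the RefSeq annotation of GRCr8. The probe of Defa5 carries an older symbol, Defa, in the deposited tables and was found by its accession, and the other 4 were found by symbol. RefSeq gives neutrophil peptide names (ratNP-1 and ratNP-2) as synonyms of Defa5, and it now lists Defa7 and Defa10 as RNAs without a protein product. These genes are close paralogs, so a probe may also have bound transcripts of its neighbours, and which transcript each signal came from is uncertain.

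Promoter sequence from RefSeq (GRCr8) was at hand for Defa9, Defa11, Np4 and RatNP-3b, neighbours of the 5 genes, and for none of the 5 themselves. It is shown as a description only. Each line gives the 250 bases before the annotated start, 5′ to 3′, with capitals marking motif matches on either strand. The letters searched were TATAAA for the TATA box. For the binding core of TCF and LEF factors they were CTTTGA. For the core of the intestinal CDX factors they were TTTATG. For the core of GATA factors they were AGATAA.
Defa9: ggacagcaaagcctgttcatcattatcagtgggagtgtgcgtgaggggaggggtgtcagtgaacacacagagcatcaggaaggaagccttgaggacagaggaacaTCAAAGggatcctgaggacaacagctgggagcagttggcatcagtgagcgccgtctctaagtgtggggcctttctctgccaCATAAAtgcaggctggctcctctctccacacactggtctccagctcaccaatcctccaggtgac
Defa11: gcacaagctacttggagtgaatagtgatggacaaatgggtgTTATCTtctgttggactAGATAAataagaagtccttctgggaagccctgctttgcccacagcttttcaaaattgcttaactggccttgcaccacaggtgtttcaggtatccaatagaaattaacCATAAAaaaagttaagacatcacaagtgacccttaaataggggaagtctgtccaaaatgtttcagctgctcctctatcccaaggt
Np4: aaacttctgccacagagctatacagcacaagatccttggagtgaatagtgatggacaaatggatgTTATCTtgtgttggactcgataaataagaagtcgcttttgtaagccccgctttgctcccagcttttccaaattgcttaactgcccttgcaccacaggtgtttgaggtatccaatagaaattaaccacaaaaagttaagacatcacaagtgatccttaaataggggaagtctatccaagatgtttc
RatNP-3b: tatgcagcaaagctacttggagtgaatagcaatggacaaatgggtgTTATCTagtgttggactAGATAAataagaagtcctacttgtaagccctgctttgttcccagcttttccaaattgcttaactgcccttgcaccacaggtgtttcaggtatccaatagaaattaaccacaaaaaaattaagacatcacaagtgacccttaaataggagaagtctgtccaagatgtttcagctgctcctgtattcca
In a global alignment, the sequences of Defa11, Np4 and RatNP-3b shared 76.7% to 89.4% of their alignment columns, and Defa9 shared 45.1% to 50.9% with them. The Defa9 sequence holds 1 TCF/LEF core and 1 CDX core, both on the reverse strand, and no GATA core. Each of the others holds at least 1 GATA core, and Defa11 also holds 1 CDX core. Of 33469 promoters of this length, 12.9% hold the TATA box letters, 13.9% the TCF/LEF core, 11.4% the CDX core and 10.3% the GATA core, so each match is common. A match is a description of the letters and not a binding site.

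Across the 4 arrays the median spot signal was 115 to 222.5 intensity units over a local background of 50 to 87, and the scanner software called 61.9% to 71.5% of spots in a channel well above it. The 5 defensin spots were dim, and none was an outlier spot. All 11 acinar genes on the array (of 12 listed) exceeded background clearly in FeA, the tissue of the label. Paneth granule genes other than defensins were also above background there, 8 of the 9 on the array. Of the narrower Paneth markers, Mptx1, a crypt pentraxin, was near background in every pool, while Mmp7, Itln1 and Spink4 were above it in FeA. The name Paneth-cell defensins is a label for the 5 chosen genes, and the cells that made these transcripts were not identified. For Defa5, with its neutrophil peptide synonyms, the label is doubtful.

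Of the 5 genes, Defa24, Defa6 and Defa8 were dimmer in the FeD pool and in the FeO pool than in the FeA pool on every array. Under the main processing Defa24 was 3.10-fold lower in FeD, where its FeD signal was well above background on 1 of 2 arrays. In FeO it was 2.75-fold lower, and both sizes moved with the processing. With the main processing, Defa6 and Defa8 were at least 1.36-fold lower in both, and as bounds these values set no order among the genes. Defa7 had ratios near 0 in both comparisons, and Defa5 did not exceed background clearly in any pool. Signals below are median spot signals minus the local background, in intensity units, and ratios are log2 of the diet pool over the FeA pool after background correction and normalization within the array.

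Defa24 gave FeA signals of 159 and 230 on the FeD arrays and of 170 and 294.5 on the FeO arrays. The FeD pool gave 58 on array 1 and 15.5 on array 2, and only the former was well above background. The FeO pool gave 76.5 and 51, both well above background. Every FeA value lay above every FeD and FeO value, so the groups did not overlap. The same holds for Defa6 and Defa8 below, and over all gene probes for 0.247%, or 0.408% of those well above background in FeA on all 4 arrays. The log2 ratio was -1.66 and -1.61 in FeD, with a mean of -1.63 ± 0.03 (SD of 2 arrays). In FeO it was -1.53 and -1.39, with a mean of -1.46 ± 0.10. The gap between array 1 and array 2 was thus much smaller than either ratio.

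Defa6, a Paneth-type alpha-defensin, gave FeA signals of 48.5, 88.5, 63.5 and 76.5 on the 4 arrays, all well above background. The FeD pool gave 29 and 24 and the FeO pool 43 and 23, none of them well above background. No diet value reached the lowest FeA value. The log2 ratio was -0.76 and -0.53 in FeD (mean -0.65) and -0.76 and -0.62 in FeO (mean -0.69). Because the diet pools were dim, only a bound is given, and it holds for the main processing alone. It put Defa6 at least 1.56-fold below FeA in the FeD pool and at least 1.59-fold below it in the FeO pool. Such a bound sets the mean of the bright pool against a mean in the dim pool. The latter takes the dim pool's own signal or the dimmest spot that the software still called above background there, whichever is higher. In FeD the own signal was the higher, so the bound there is the measured ratio itself. Without background subtraction the log2 ratio of Defa6 was -0.52 in FeD and -0.57 in FeO, a smaller difference than the bounds give.

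Defa8 gave FeA signals of 41.5, 71, 49.5 and 48.5, all well above background. The FeD pool gave 25 and 15 and the FeO pool 33 and 17, none well above background. Again the FeA values lay above all diet values. The log2 ratio was -0.69 and -0.58 in FeD (mean -0.64) and -0.65 and -0.43 in FeO (mean -0.54). Under the same main processing, the bounds for Defa8 were at least 1.47-fold lower for FeD and at least 1.36-fold lower for FeO.

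Defa7 gave FeA signals of 16.5 and 64.5 beside FeD signals of 37 and 36. On the FeO arrays it gave 32 and 59.5 in FeA and 56 and 38 in FeO. These groups overlapped, and the higher value on each array belonged to the Cy5 channel. After normalization the log2 ratio was 0.03 and -0.04 in FeD and -0.00 and -0.10 in FeO. Defa5 gave 10.5 to 19.5 in all pools, never well above background, with FeD ratios of -0.05 and 0.06 and FeO ratios of -0.17 and 0.03. Both channels were dim, so these ratios say nothing about Defa5 at this sensitivity.

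**Figure D1:**
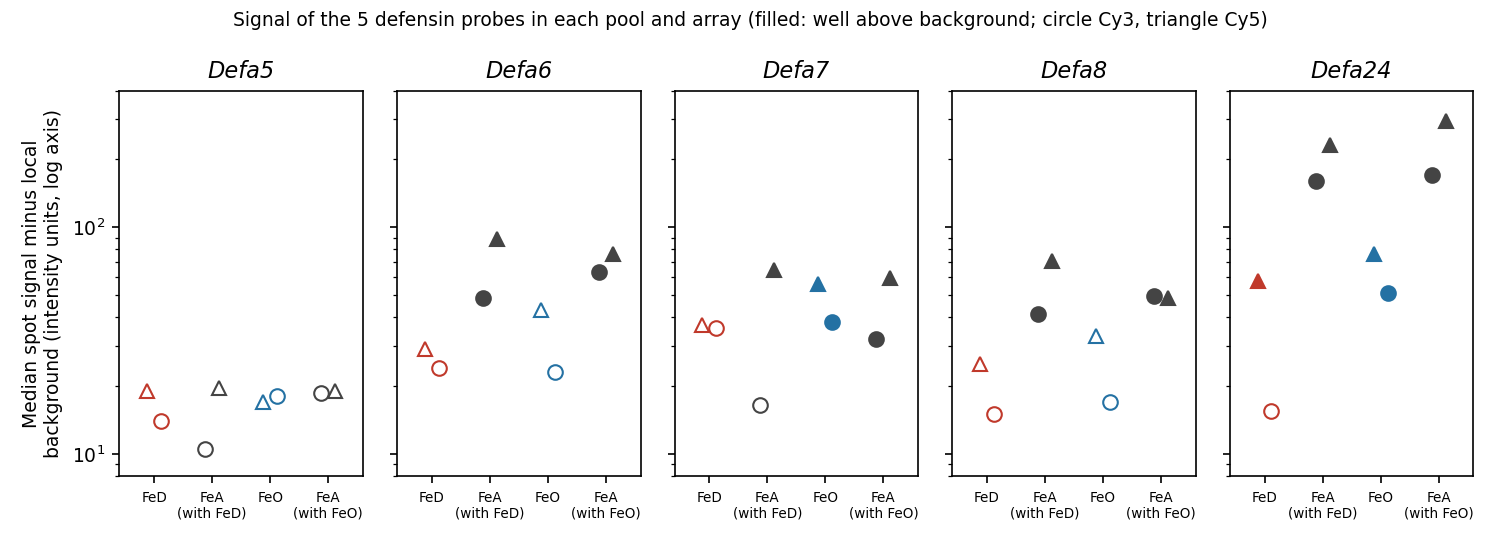
Median spot signal minus local background (intensity units, log axis) of the 5 defensin probes in each pool, with circles for Cy3, triangles for Cy5 and filled symbols for spots well above background. For Defa24 the FeA pool spans 159 to 294.5 and the FeD and FeO pools 15.5 to 76.5, for Defa6 and Defa8 all FeA symbols lie above all diet symbols, and for Defa5 and Defa7 the pools overlap.

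In FeD, 3 of the 5 genes had a log2 ratio below 0 on both arrays, and 22.3% of all gene probes did. In FeO, 4 of the 5 did (Defa7 included, at -0.05), against 24.6% of all gene probes. Among probes well above background in 1 pool or both the shares were 21.5% in FeD and 24.0% in FeO, and 3 and 4 of the 5 genes passed that filter. Defa24, Defa6 and Defa8 in FeD, and Defa6 and Defa8 in FeO, passed through the FeA pool alone, a filter that favours low ratios. A log2 ratio of at most -1, a fold of 2, was met by Defa24 alone in each comparison with the offset of 50 used in background correction, where 0.245% (FeD) and 0.497% (FeO) of the probes met it. With that offset no member reached -2, the size used in the study's methods, which 0.0971% and 0.137% of the probes reached. The offset pulls dim spots towards 0, and these calls turned on it. With an offset of 0, Defa24 was at -2.89 in FeD and -2.16 in FeO, Defa6 at -1.47 and -1.55, and Defa8 at -1.68 and -1.51. With the scanner software's own ratio all 3 genes were past -2 in both comparisons, and in FeO their order was turned, with Defa8 at -3.52, Defa6 at -2.80 and Defa24 at -2.55. The median over the 5 genes was -0.64 in FeD and -0.54 in FeO, and the median over all gene probes was 0.01 in each. As the choice of genes used these same ratios, nothing is read from these counts.

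**Figure D2:**
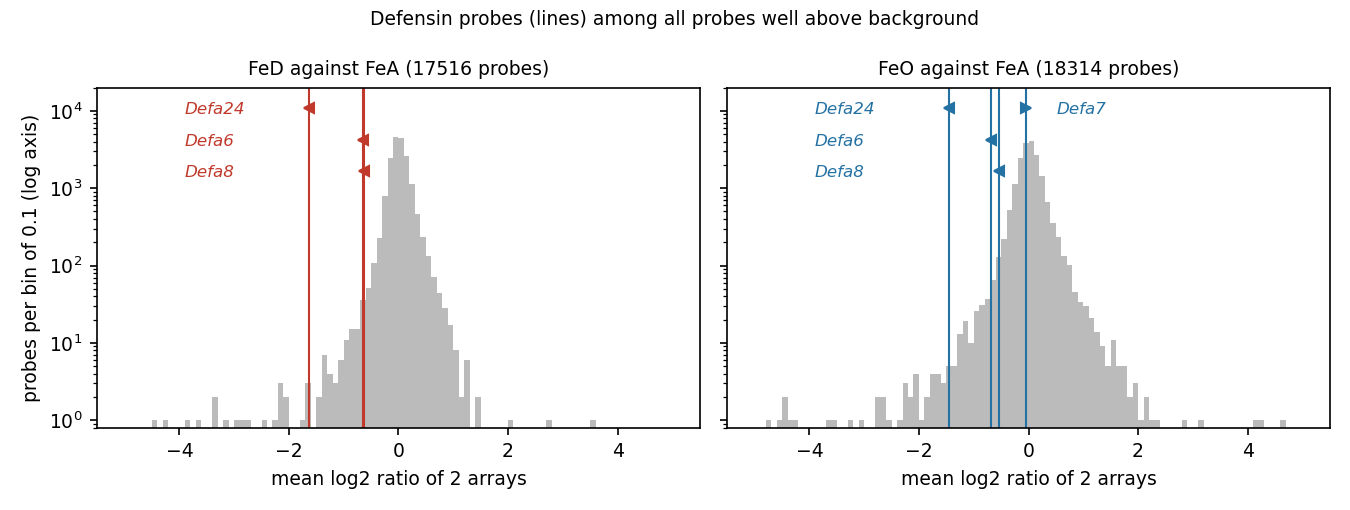
Histogram of the mean log2 ratio of 2 arrays for the 17516 (FeD) and 18314 (FeO) probes well above background, in bins of 0.1 with a log count axis, with a line for each defensin probe that passed the filter. Defa24 stands in the sparse lower tail at -1.63 and -1.46, and Defa6 and Defa8 on its flank between -0.69 and -0.54, while Defa7 in FeO stands near 0.

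Of the other alpha-defensins, Defa9 had low ratios and the rest were near 0. Defa9 was well above background in every pool on every array and had -0.74 and -0.33 in FeD (mean -0.53) and -0.70 and -0.59 in FeO (mean -0.65). With the main processing it therefore gives a fold rather than a bound, 1.45-fold lower in FeD and 1.56-fold lower in FeO. Defa9 was dim as well, so the offset pulled its ratios towards 0, and no alternative processing is given for it. Np4, a neutrophil peptide, had a mean of -0.02 in FeD and -0.08 in FeO, and its arrays differed in sign. RatNP-3b, another neutrophil peptide, was above background throughout and had 0.01 and -0.36 in FeD and -0.02 and -0.26 in FeO. Defa10 had a mean of -0.14 in FeD and -0.07 in FeO, and Defa11 was not well above background anywhere. Of the 10 genes, 6 in FeD and 8 in FeO were well above background, and 5 and 6 of these were lower on both arrays. Among all probes well above background the shares were 21.5% in FeD and 24.0% in FeO. The counts include ratios near 0, such as Defa10 in FeD (-0.14) and Defa7 in FeO (-0.05), and nothing is read from them. Of the 4 genes whose promoters are shown, Defa9 had the lowest ratio in both comparisons. Defa11 was dim in every pool, and in FeD Np4 was not well above background on both arrays in either pool. Their ratios near 0 therefore say little, and a link between promoter sequence and ratio was not tested.

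**Figure D3:**
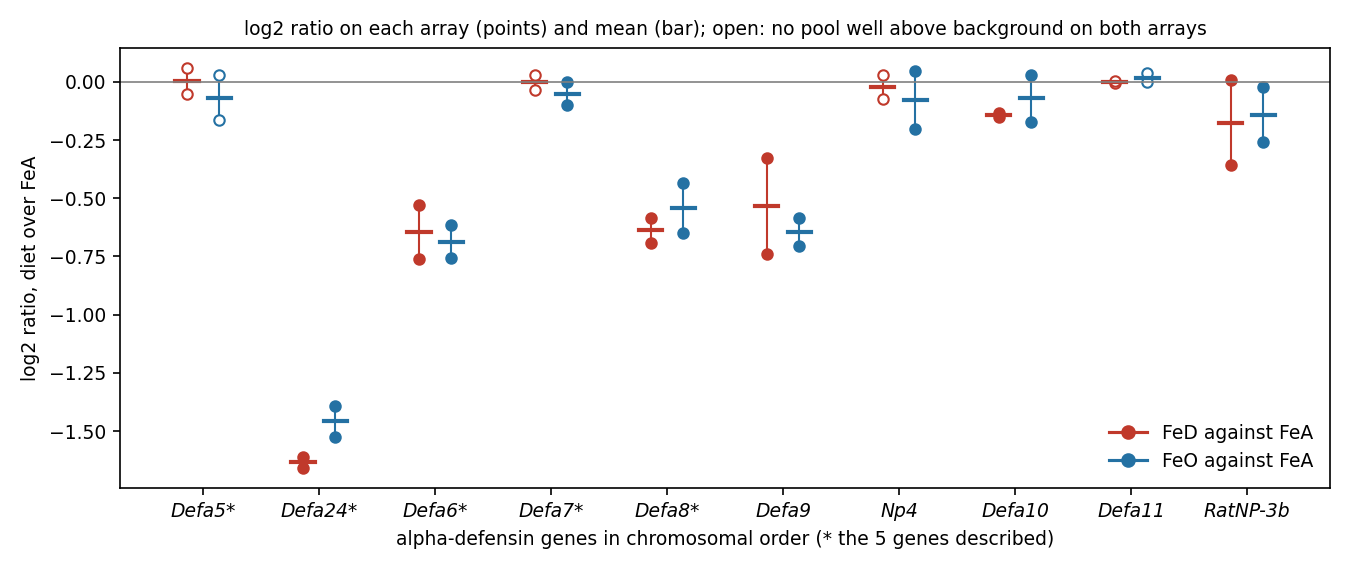
log2 ratio of diet over FeA for 10 alpha-defensin genes in chromosomal order, with points for the 2 arrays, a bar for their mean, and open points where no pool was well above background on both arrays. Defa24, Defa6, Defa8 and Defa9 have means of -0.53 or less in both comparisons, and the other 6 genes lie between -0.18 and 0.02.

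Of the 11 listed Paneth granule proteins that are not alpha-defensins, 9 were on the array and 8 were well above background. In FeD 6 of the 8 were lower on both arrays and 2 were higher, with a median of -0.60. In FeO 6 were lower and 1 was higher, with a median of -0.69. Among all probes well above background, 21.5% in FeD and 24.0% in FeO were lower on both arrays. Spink4, Itln1 and Reg3g in FeD, and Mmp7, Reg3g and Spink4 in FeO, passed through the FeA pool alone, which favours low ratios. The lowest in FeD were Spink4, a secreted protease inhibitor of goblet and Paneth cells (-0.85), Ang, a secreted ribonuclease (-0.71), and Itln1, an intestinal lectin (-0.70). The highest in FeD were Mmp7 (1.03), Lyz2, a lysozyme that macrophages also make (0.60), and Reg3g, an antibacterial lectin (-0.50, at least 1.39-fold lower). In FeO the lowest were Mmp7 (-2.11, at least 4.05-fold lower), Ang (-1.24) and Ang2, another ribonuclease (-1.11). The highest in FeO were Pla2g2a, a secreted antibacterial phospholipase (3.13), Itln1 (-0.21) and Lyz2 (-0.21, with arrays of opposite sign). The study had listed Mmp7, Spink4, Reg3g and Pla2g2a as well. The summed signal of the list was 44950 and 48027 in FeD beside 65868 and 58560 in FeA, and 28123 and 38553 in FeO beside 66139 and 64292 in FeA, most of it from Ang and Ang2.

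Mmp7, the activator of Paneth alpha-defensins in mice, lay on the other side of FeA from the defensins in FeD. Its normalized signal was 568 and 450 in FeD beside 243 and 253 in FeA, and 62.6 and 68.8 in FeO beside 271 and 296 in FeA. Mmp7 was thus higher than FeA on both FeD arrays, where Defa24, Defa6 and Defa8 were lower. In FeO it was lower on both arrays, as they were. Pla2g2a showed the reverse, with 183 and 208 in FeD beside 275 and 300 in FeA, and 2283 and 2863 in FeO beside 363 and 233 in FeA.

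Of 13 regulators and surface proteins used to mark Paneth cells, 11 were well above background. The medians were 0.01 in FeD, with 3 lower and 4 higher on both arrays, and 0.00 in FeO, with 4 lower and 4 higher. The lowest in both were Cd24, a surface glycoprotein (-0.68 and -1.47), Xbp1, a factor of secretory cells that acinar cells also use (-0.54 and -0.65), and Spdef, a goblet and Paneth cell factor (-0.20 and -0.36). The highest in FeD were Ephb3 (0.45), a receptor that positions Paneth cells, Sox9 (0.24) and Kcnn4 (0.21), and in FeO Ephb3 (0.61), Nod2 (0.29) and Gfi1 (0.19). The Wnt pathway genes Wnt3 and Fzd5 stayed near background in every pool.

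Most markers of other gut epithelium were also lower in both diet pools. Of 22 listed enterocyte, goblet and crypt genes, 21 were on the array and 20 were well above background. In each comparison 17 of the 20 were lower on both arrays, beside 21.5% (FeD) and 24.0% (FeO) of all probes well above background. Several, such as Fabp2 and Agr2, passed that filter through the FeA pool alone. The medians were -1.37 in FeD and -1.72 in FeO, and 13 genes were at -1 or less in each. Cdx1, an intestinal CDX factor, was higher on both arrays in each comparison (0.16 and 0.13). Vil1 had arrays of opposite sign in each. The lowest in both were S100g, an enterocyte calcium binding protein (-4.44 and -4.77), Fabp1, a fatty acid binding protein (-4.21 in FeD, and in FeO at least 22.0-fold lower), and Prap1 (-3.89 and -4.45). The summed signal of the 21 genes was 5689 and 6670 in FeD beside 17622 and 18807 in FeA, and 4947 and 5866 in FeO beside 18211 and 18556 in FeA. Of these genes, 6 (Fabp1, Fabp2, Apoa1, Lgals4, Prap1 and S100g) had been printed by the study from these arrays. Without them 11 of 14 were lower on both arrays in each comparison and the medians were -0.98 and -1.05. The paper followed up Fabp1, Fabp2 and Apoa1 by qRT-PCR and reports that their pancreatic levels were too low to detect. It lists this as a discrepancy with the arrays. Of the crypt stem cell markers, Lgr5 was at 0.21 in FeD and -0.29 in FeO, and Olfm4 was near background in every pool. The part of gut epithelium in the defensin ratios was not tested.

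Neutrophil markers gave a different pattern. Of 16 genes, 6 in FeD and 8 in FeO were well above background, with medians of 0.17 and 0.21. In FeD 4 were higher on both arrays and 1 was lower, and in FeO 5 were higher and 2 lower. The lowest were Ngp (-0.40 and -0.55), a granule protein, Prtn3 (0.03 and -0.10), a granule protease, and in FeD Camp (0.14), a cathelicidin, or in FeO Mpo, the myeloperoxidase (-0.07). Elane, Ltf, S100a8, Mmp8, Mmp9 and Cebpe stayed near background in every pool. By contrast Prtn3, Ctsg, Fcnb, Ngp and Lcn2 were well above background in every pool on both arrays. Ctsg was higher on both arrays in each comparison (0.20 and 0.59). The summed signal of the 16 genes was 1913 to 2017 in FeD beside 1692 to 1779 in FeA, and 2365 to 2531 in FeO beside 1966 to 1973 in FeA. Much of the difference came from Lcn2, the highest of the measured genes in both comparisons (0.66 and 1.15). Lcn2 gave 517 and 580 in FeD beside 360 and 333 in FeA. On the FeO arrays it gave 681 and 918 beside 397 and 322 in FeA. The sums therefore do not describe the whole list. S100a9, one of the 16, had been listed by the study.

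Beta-defensins, a related family made by many epithelia and abundant in the male reproductive tract, did not share the low ratios. Of 41 genes, 11 were well above background in each comparison, namely Defb20, Defb22, Defb24, Defb25, Defb27, Defb29, Defb36, Defb42, Defb43, Defb51 and Defb52. Their mean log2 ratios ranged from -0.07 (Defb29) to 0.29 (Defb36) in FeD, with a median of 0.08. In FeO they ranged from -0.70 (Defb52) to 0.30 (Defb36), with a median of 0.04. Defb52 in FeO, at -0.75 and -0.64 on the 2 arrays, was the lone beta-defensin in the range of Defa6 and Defa8, and in FeD it was at -0.04.

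**Figure D4:**
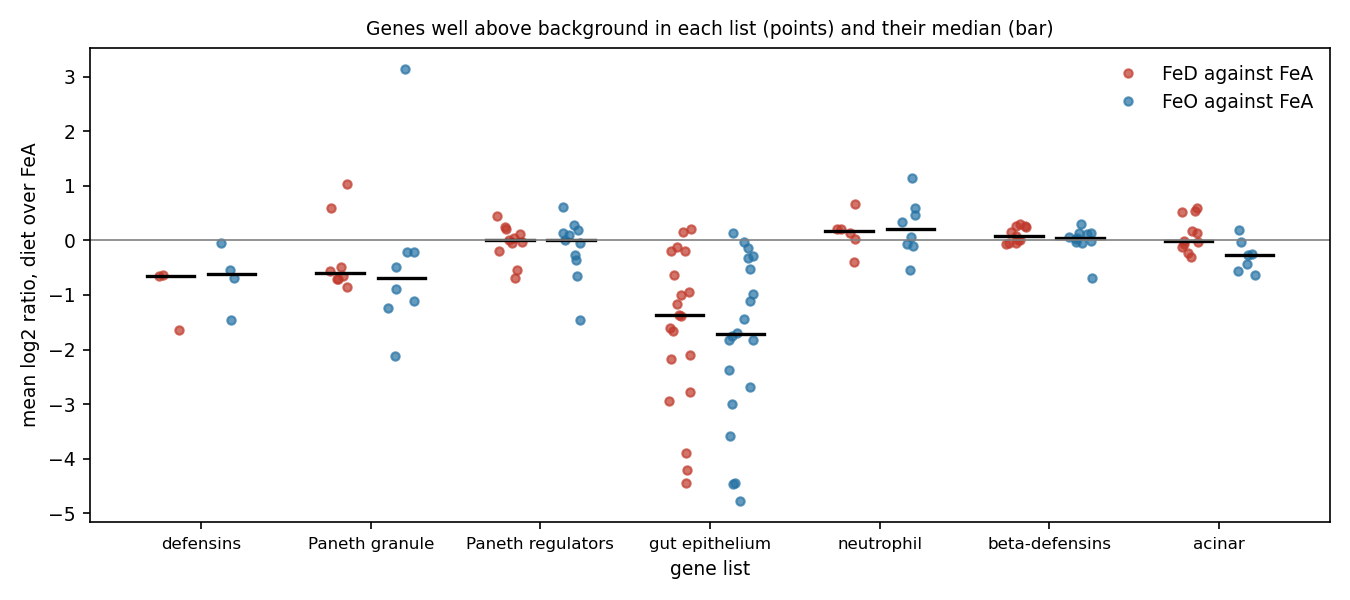
Mean log2 ratio of diet over FeA for the genes of each list that were well above background (points) and their median (bar). The gut epithelium list reaches from -4.77 to 0.21 with medians of -1.37 and -1.72, and the Paneth granule list has medians of -0.60 and -0.69 with single genes above 1. The regulator, neutrophil and beta-defensin lists have medians from 0.00 to 0.21. In FeO the regulators reach from -1.47 to 0.61 and the neutrophil genes from -0.55 to 1.15.

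Acinar genes had a median of -0.02 in FeD over 11 genes and -0.28 in FeO over the 7 whose spots were usable on both arrays. Of 7 stomach genes, 3 in FeD and 2 in FeO could be measured. The lowest, Tff1, a mucosal trefoil peptide that the study also listed, was at -2.86 and -2.75. Tff2 was at -0.49 in FeD, and Atp4a was higher on both arrays in each comparison (0.18 and 0.19). The stomach genes Gkn1, Gkn2, Gif and Pga5 stayed near background in every pool.

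By likeness of profile, the 4 array ratios of each probe were set against the mean of the 5 defensin probes (-0.63, -0.54, -0.62 and -0.50). That mean blends Defa24 with Defa7, which was near 0, and with Defa5, which was near background. It is therefore not the profile of all 5 genes. Among 12701 named probes well above background in FeA on all arrays, the 5 nearest by Euclidean distance were Ghrl, the gut hormone ghrelin (0.088), Muc13, an epithelial mucin (0.118), Ppp1r3a, a glycogen phosphatase subunit (0.122), 1 of the probes of Muc2, the goblet cell mucin (0.138), and Zcchc12 (0.150). Ghrl had mean log2 ratios of -0.60 in FeD and -0.61 in FeO. Set against Defa24 alone, a choice made after its values were seen, the nearest were Agr2, a goblet cell disulfide isomerase (distance 0.369, at least 3.14-fold and 3.24-fold lower), Hsd17b2, a steroid dehydrogenase (0.461), and Cdh17, the intestinal cadherin (0.524). With 4 technical ratios per probe, these distances only describe the arrays.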

How the data were processed

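Per the file headers, the authors scanned the arrays with Agilent Feature Extraction 10.1.1.1, and of the intensity columns the median spot and median background signals, to which no correction had been applied, were used. The log10 ratios, as deposited, are red over green processed signal and served as an alternative after turning the swapped array. The deposited comparison tables hold the authors' fold changes, p-values, q-values and a keep or discard tag, and only their probe names and symbols were used.

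limma 3.58.1 (R 4.3.3) gave the ratios: normexp with an offset of 50, loess within each array, outlier spots left out, swapped arrays turned and both arrays averaged. The offset pulls ratios of dim probes towards 0. A probe counted as well above background when it was so on both arrays in at least 1 pool. Bounds used Aquantile channel values. Summaries were made with pandas 2.3.3, scipy 1.17.1 and numpy 2.4.6 under Python 3.11.15, and the steps were tested on simulated data. Names came by accession for 18004 probes, from the authors' tables for 4945 and from the array for 7418.

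The 5 genes and the 7 marker lists (Paneth granule, Paneth regulators, gut epithelium, neutrophil, acinar, stomach and lymphoid) were chosen with earlier results of these data known. The text names the alpha-defensins, the 3 lowest and 3 highest genes of the Paneth lists, the 3 lowest of the gut and neutrophil lists, beta-defensins above background, and the 5 nearest profiles. Other genes were named after their values were seen. The values of 1 further gene of the family are not reported here. With 1 pool per diet no test of the diets was made. The number of arrays limits the precision. Alternatives were an offset of 0, raw signals without subtraction, the scanner ratio, median centring, other filters and sizes, the methods' t-test as a filter on counts, and each array left out.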

Additional observations from a re-analysis of the deposited data

Results flagged for a closer look

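For 3 genes of the Paneth lists the FeD and FeO pools lay on opposite sides of the FeA pool on every array, and the difference between diets was not tested. The log2 ratio in FeO minus that in FeD was -3.14 for Mmp7, 3.69 for Pla2g2a and -0.47 for Kcnn4, a potassium channel of Paneth cell granule release.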

How the results depend on the processing

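The median log2 ratio of the 5 genes depended on how dim spots were handled. In FeD it was -0.64 and became -0.52 without background subtraction, -1.47 with an offset of 0 and -2.71 with the scanner software's log ratio. In FeO it was -0.54 and became -1.51 with an offset of 0 and -2.55 with the scanner ratio. Leaving out each array in turn gave -0.69 to -0.53 in FeD and -0.65 to -0.43 in FeO. The number of genes lower on both arrays stayed within 1.5 times its value under the alternatives run. Defa24 ranged from -4.01 to -1.47 in FeD and from -2.55 to -1.32 in FeO, Defa6 from -2.71 to -0.52 and from -2.80 to -0.57, and Defa8 from -3.11 to -0.55 and from -3.52 to -0.43. Defa5 changed sign among the alternatives in both comparisons, and Defa7 in FeD. Probes at -1 or less numbered 43 in FeD and 91 in FeO. An offset of 0 gave 103 and 212, the scanner ratio 165 and 322, the methods' t-test 17 and 37, and its Benjamini-Hochberg form 0 and 0. At -2 or less, 17 and 25 probes became 28 and 42, 63 and 90, 7 and 10, and 0 and 0. Taking the brightest probe per gene changed nothing, as each has 1 probe. No paired analysis was possible because each comparison holds 1 pair of pools and no test was made. Dim diet pools limit Defa6 and Defa8 to bounds, and Defa5 to no value.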

Other observations

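Lymphoid genes also lay on opposite sides of FeA in the 2 diets. In FeD all 9 measured genes of the list (of 10) were higher on both arrays, with a median log2 ratio of 0.60. They ranged from Cd2, a T cell adhesion molecule (0.24), to Glycam1, an adhesion ligand of lymph node venules (1.15). Ms4a1, Cd2 and Cr2 passed the filter through the FeD pool alone. The share of all probes higher on both arrays was not counted, so nothing is read from this count. In FeO 6 of the 7 that were well above background were lower on both arrays, beside 24.0% of all such probes. Their median was -0.91, with Glycam1 at -2.75. The summed signal of the 9 genes was 7119 and 6183 in FeD beside 3510 and 3489 in FeA. On the FeO arrays it was 1372 and 1463 in FeO beside 3348 and 3652 in FeA. The defensins Defa24, Defa6 and Defa8 were lower than FeA in both diets. Whether lymphoid tissue differed among the pools was not tested.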
